A study of Mus musculus with 5 samples.

Results

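Accessible DNA and the sites of the transcription factors HEB and TCF1 were described around 5 genes for cytokine and chemokine receptors, Il4ra, Il21r, Il7r, Ccr9 and Ccr7. All listed regions overlapping 4 windows of build mm9 were taken: chromosome 7 from 132650001 to 132850000 (Il4ra and Il21r), chromosome 15 from 9400001 to 9500000 (Il7r), chromosome 9 from 123640001 to 123720000 (Ccr9) and chromosome 11 from 98980001 to 99040000 (Ccr7). They held 70 of the 48320 DNaseI regions, 8 of the 4930 HEB regions and 9 of the 3546 TCF1 regions, or 87 of 56796 in all. The windows are those given for these genes, and which part of a gene a region lies in was not worked out here, because the gene table is of another build. They were selected by gene from loci whose DNaseI, HEB and TCF1 regions in these same lists were already known, so counts and densities below are a description and were not tested.

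Double positive (DP) thymocytes are immature T cells of the thymus that carry both CD4 and CD8. They came from C57/BL6 mice aged 4 to 6 weeks, with no genetic change or treatment named in the labels, and all groups were the same cells under different assays. DNaseI regions mark DNA that the enzyme cuts readily in intact nuclei, and the other 2 lists come from chromatin immunoprecipitation with antibodies to HEB and to TCF1. Each assay had 1 sample, so no value has a replicate error. The labels do not say how many mice were pooled, and the identity of the cells was not checked against marker genes, which would need an mm9 annotation. The H3K9me3 and H3K27ac samples of the series were not analysed here.

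Il4ra, Il21r and Il7r encode the specific chains of the receptors for interleukins 4, 21 and 7, which all pair with the common gamma chain and signal through JAK kinases and STAT factors. IL-7 receptor signals sustain the earliest thymocytes, and the receptor is known to be turned off at the DP stage and to return after positive selection. Ccr9 and Ccr7 encode G protein-coupled receptors that steer migrating cells: CCR9, the receptor for CCL25, is known on DP thymocytes, and CCR7, the receptor for CCL19 and CCL21, comes up after positive selection and guides cells to the medulla. HEB, an E protein encoded by Tcf12, binds E-box sequences (CANNTG), and TCF1, encoded by Tcf7, binds sequences with the core CTTTG. In gene order, Il4ra lies beside Il21r, between Nsmce1 and Gtf3c1, Il7r lies between Capsl and Spef2, Ccr9 between Lztfl1 and Fyco1, and Ccr7 between Tns4 and Smarce1 (RefSeq protein-coding genes, GRCm38.p6).

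Promoter sequence was found for 4 of the 5 genes in RefSeq's table for GRCm38.p6, and Ccr7 was not matched. The sequences below are shown to set the letters that both factors read beside one another in a gene whose window held both factors (Il4ra, Ccr9) and in the gene whose window held neither (Il7r). They run 5′ to 3′ on the gene's strand, with matches to CANNTG or to CTTTG on either strand (CAAAG on the other) in capitals. The Il4ra sequence is chr7:125552021-125552270 and the Ccr9 sequence chr9:123766961-123767210, both plus strand and the 250 bases before the start. The Il7r sequence is chr15:9529942-9530126, minus strand, and holds the 185 bases upstream of the outermost annotated start. These positions are in GRCm38.p6 and cannot be set against the mm9 positions below.
Il4ra: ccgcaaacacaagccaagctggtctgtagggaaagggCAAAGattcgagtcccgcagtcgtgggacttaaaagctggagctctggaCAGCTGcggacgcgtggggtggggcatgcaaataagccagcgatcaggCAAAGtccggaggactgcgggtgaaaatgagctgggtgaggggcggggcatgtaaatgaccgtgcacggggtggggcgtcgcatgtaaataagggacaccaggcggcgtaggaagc
Ccr9: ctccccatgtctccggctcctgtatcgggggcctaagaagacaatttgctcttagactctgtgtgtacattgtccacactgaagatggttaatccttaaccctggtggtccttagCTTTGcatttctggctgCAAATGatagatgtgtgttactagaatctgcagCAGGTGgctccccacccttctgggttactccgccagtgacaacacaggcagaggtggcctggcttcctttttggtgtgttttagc
Il7r: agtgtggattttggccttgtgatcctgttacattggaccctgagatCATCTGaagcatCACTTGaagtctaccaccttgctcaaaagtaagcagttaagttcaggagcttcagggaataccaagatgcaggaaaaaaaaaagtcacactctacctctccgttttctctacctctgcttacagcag

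Over the full 250 bases before the start, CANNTG occurred 1 time in Il4ra, 1 time in Il21r, 3 times in Il7r and 2 times in Ccr9. It occurred at least 1 time in 66.2% of the 32851 promoters of the table. The Il4ra match was CAGCTG at bases -164 to -159 before the start, a form present in 13.0% of promoters. A Ccr9 match was CAGGTG at -85 to -80, a form present, on either strand, in 17.2% of promoters. CTTTG on either strand was found 2 times in Il4ra, 2 times in Il21r, 1 time in Ccr9 and 0 times in Il7r, against at least 1 match in 48.6% of promoters. The longer form CTTTGAT, which contains CTTTG and was also searched on the opposite strand, was found in none of the 4 genes and in 3.21% of all promoters. No CANNTG match overlapped a CTTTG match in the 4 genes. These letters describe the promoters only, and whether any listed region covers one of them was not tested.

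The Il4ra and Il21r, Ccr9 and Ccr7 windows were all dense in open chromatin, and the Il7r window held no region of any list. The DNaseI list had 37 regions in the Il4ra and Il21r window, 12 in the Ccr9 window and 21 in the Ccr7 window, which is 18.5, 15.0 and 35 per 100 kb. The whole list averaged 1.88 per 100 kb, so these densities were 9.84, 7.98 and 18.6 times the average. Of all 200 kb windows on a fixed grid over the chromosomes, 0.674% held 37 DNaseI regions or more. For the Ccr9 window, 2.46% of 80 kb grid windows held 12 or more, and for the Ccr7 window, 0.127% of 60 kb grid windows held 21 or more. The grid includes unassembled and unmappable sequence, which can hold no region, and it was not matched for gene content. Much of it was empty: 54.5% of the 200 kb, 66.3% of the 80 kb and 69.9% of the 60 kb grid windows held no DNaseI region. DNaseI regions covered 13.8% of the Il4ra and Il21r window, 6.95% of the Ccr9 window and 17.1% of the Ccr7 window, against 0.845% of the whole chromosome span.

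**Figure D1:**
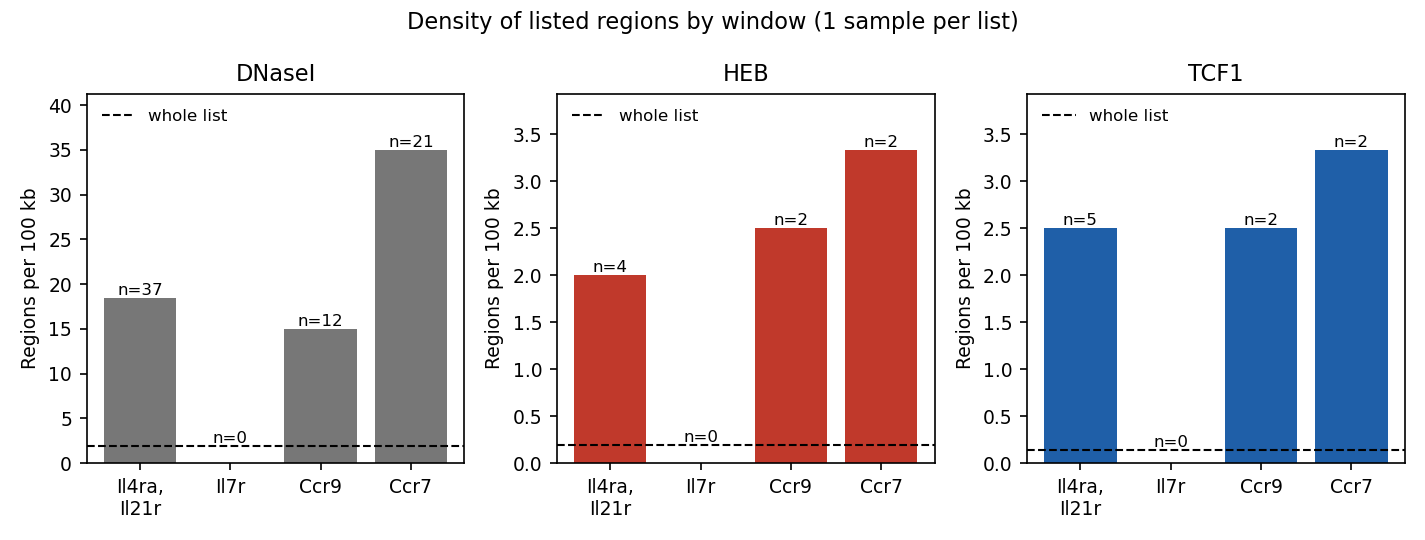
Listed regions per 100 kb (bars, number of regions above each) in the 4 windows for DNaseI, HEB and TCF1, with the average of each whole list as a dashed line; each list comes from 1 sample. The Il7r window has no bar in any list, and the Ccr7 window has the highest DNaseI density, at 35 per 100 kb.

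Both factors had regions in each window with open chromatin and none in the Il7r window. Absence is usual at that length: 85.0% of the 100 kb grid windows held no HEB region and 90.0% no TCF1 region. HEB had 4 regions in the Il4ra and Il21r window, 2 in the Ccr9 window and 2 in the Ccr7 window, or 2, 2.5 and 3.33 per 100 kb, where its whole list averaged 0.192. TCF1 had 5, 2 and 2 regions there, or 2.5, 2.5 and 3.33 per 100 kb, where its whole list averaged 0.138. With 2 regions of each factor, the Ccr9 and Ccr7 windows were alike in number, although the Ccr7 window held more DNaseI regions in less length.

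All 8 HEB regions and all 9 TCF1 regions lay in DNaseI regions. Over the whole lists 34.5% of HEB regions and 84.9% of TCF1 regions did so, and the intervals for the windows ran from 67.6 to 100% (HEB) and from 70.1 to 100% (TCF1). The dense open chromatin of these windows moves with that count, and its part in it was not tested. Seen from the open side, HEB lay on 8 of the 70 DNaseI regions, or 11.4% (95% Wilson interval 5.91 to 21.0%), against 3.43% of the whole list. TCF1 also lay on 8, or 11.4% (5.91 to 21.0%), against 6.1% of the whole list, a value within the interval. Both factors met on 6 DNaseI regions, or 8.57% (3.99 to 17.5%), against 1.28% of the whole list, and these are 6 of the 619 DNaseI regions of the series that carry both. HEB alone was on 2, TCF1 alone on 2 and neither on 60. Either factor was thus on 10 of 70, or 14.3% (7.95 to 24.3%), against 8.25% of the whole list, which lies within that interval.

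The factors sat on wide, high-scoring open regions of the windows. The DNaseI score, a whole number with no stated unit, had a median of 17 in the windows (range 8 to 385) and 16 in the whole list. The 10 regions with a factor had scores from 50 to 385 (median 95.5) and widths from 650 to 4690 bp. The 60 regions with neither had scores from 8 to 94 (median 14.5) and widths from 201 to 1410 bp, so the groups overlapped between scores of 50 and 94. The whole list had the same order. Its regions with a factor had a median score of 52 and a median width of 725 bp. Those with neither had medians of 15 and 306 bp. All 5 DNaseI regions with scores of 100 or more carried TCF1, and 4 of them also carried HEB. In the whole list 3.14% of regions reached that score, and 43.2% of these carried TCF1 and 26.5% HEB. At scores of 50 to 99, 5 of 14 window regions carried a factor, or 35.7% (16.3 to 61.2%), against 26.9% in the whole list. Below 50, 0 of 51 did (upper limit of the interval 7.00%), against 4.49% of the whole list. Lower-scoring open regions without a factor are thus common in the whole list too.

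**Figure D2:**
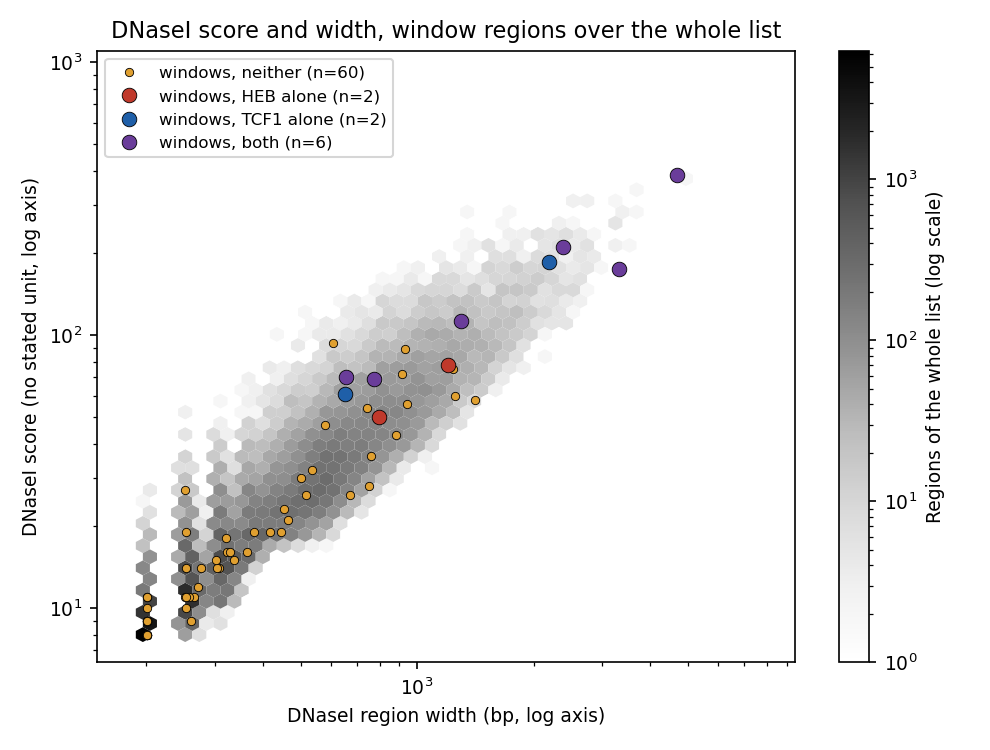
DNaseI score (log axis, no stated unit) against region width (bp, log axis) for the 70 window regions, coloured by the factors they carry, over all 48320 regions in grey. Regions with a factor start at a score of 50 and a width of 650 bp, and regions with neither reach a score of 94.

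Score and width rise together in this list, and a wide region has more room for a factor region. Regions were therefore also sorted into width deciles of the whole list. In the widest decile (854 bp or more), 6 of 13 window regions carried a factor, or 46.2% (23.2 to 70.9%), against 32.1% of the whole list. In the next decile (628 to 853 bp), 4 of 9 did, or 44.4% (18.9 to 73.3%), against 16.8%. Among narrower regions 0 of 48 did, against 4.19%, with an interval of up to 7.41% that includes that share. A score percentile (share of regions with a lower score, ties split) was then taken within each width decile. For the 6 regions with both factors it ran from 79.2 to 99.7, with a median of 92.3. Regions with TCF1 alone stood at 82.6 and 95.6, and those with HEB alone at 53.3 and 67.0. The widest decile held 4 of the 6 regions with both and spanned 854 to 7846 bp. Width was thus matched only loosely there, and its part in these percentiles was not tested. The 60 regions with neither had a median percentile of 43.2 and ran from 0.987 to 99.5, a range that overlaps every class.

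Around Il4ra and Il21r, open chromatin was gathered in 3 long groups, where regions no more than 5 kb apart were joined. The first ran over 10.7 kb with 7 DNaseI regions, the next over 31.0 kb with 18, and the last over 14.3 kb with 6. All 9 factor regions of the window lay in these groups. The other 6 DNaseI regions lay in 4 small groups with scores of at most 23, none with a factor. The widest gap inside the window without open chromatin was 34380 bp.

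The highest-scoring DNaseI region of the window was on chromosome 7 from 132778294 to 132782983, 4690 bp wide, with a score of 385. It ranked 14 of 48320 in its list. It carried 1 HEB region, from 132780065 to 132780265 (HEB score 20), and 2 TCF1 regions, from 132779055 to 132779237 (TCF1 score 18) and from 132779998 to 132780180 (TCF1 score 9). The HEB region overlapped the lower-scoring TCF1 region by 116 bp, with centres 76 bp apart. It was 1019 bp from the centre of the TCF1 region with the higher score. The TCF1 region that met HEB stood at the 21.8 percentile of its list, the lowest of the 9.

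The region next in score, from 132698796 to 132701181 (score 211, 2386 bp), lay 80.7 kb away by its centre. It carried a HEB region from 132700352 to 132700552 (HEB score 17) and a TCF1 region from 132700400 to 132700582 (TCF1 score 12), with centres 39 bp apart and 153 bp shared. The third, from 132773522 to 132775714 (score 186, 2193 bp), was only 6.02 kb from the highest one and carried TCF1 without HEB, from 132773930 to 132774112 (TCF1 score 11).

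Another wide region, from 132748872 to 132752192 (score 175, 3321 bp), carried both factors apart from each other. Its HEB region ran from 132749275 to 132749475 (HEB score 12) and its TCF1 region from 132751038 to 132751220 (TCF1 score 22, the highest of the 9 TCF1 members). Their centres were 1754 bp apart, on opposite sides of the middle of the open region. HEB without TCF1 was on the region from 132726821 to 132728020 (DNaseI score 78, 1200 bp), with a HEB region from 132727525 to 132727725 (HEB score 18). Its neighbour from 132724592 to 132725832 (score 75, 1241 bp), a contrast chosen after its values were seen, carried neither factor.

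**Figure D3:**
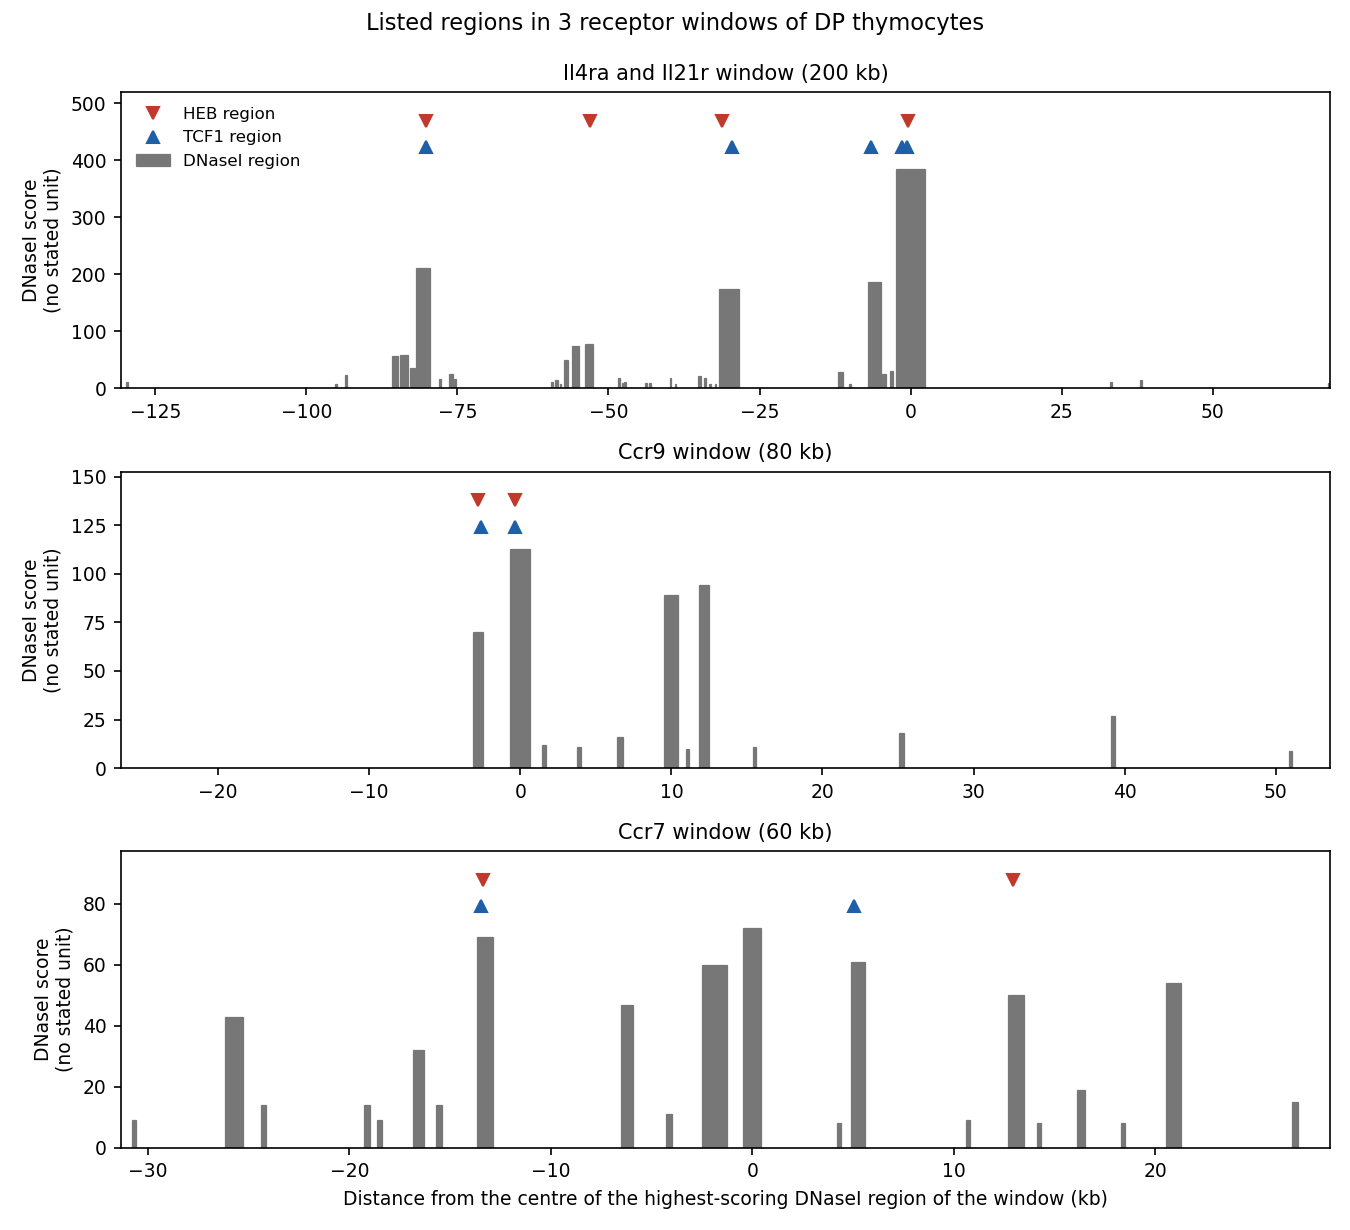
DNaseI regions (bars, drawn to their width, height is the DNaseI score with no stated unit) and the centres of HEB and TCF1 regions (triangles) in 3 windows, by distance in kb from the centre of the highest-scoring DNaseI region of each. Score axes differ between panels. Factor regions stand over the 4 highest bars and the bar with a score of 78 at Il4ra and Il21r, over the left pair at Ccr9, and over 3 bars spread across the Ccr7 window, whose highest bar has none.

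At Ccr9, both factors occupied the same pair of open regions and no other. The first ran on chromosome 9 from 123663300 to 123663953 (DNaseI score 70, 654 bp), with HEB from 123663532 to 123663732 (HEB score 13) and TCF1 from 123663698 to 123663880 (TCF1 score 17). Their centres were 157 bp apart and they shared 35 bp. The other, 1817 bp further on, ran from 123665771 to 123667072 (DNaseI score 113, 1302 bp). It carried HEB from 123665955 to 123666155 (HEB score 26) and TCF1 from 123665976 to 123666158 (TCF1 score 21), with centres 12 bp apart and 180 of the 183 bp of the TCF1 region shared. That HEB region ranked 292 of 4930 in its list, the highest of the 8 HEB members, and the TCF1 region ranked 218 of 3546, tied with other regions of the same score.

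The remaining high open regions at Ccr9 carried neither factor. They ran from 123675922 to 123676854 (DNaseI score 89, 933 bp) and from 123678277 to 123678884 (DNaseI score 94, 608 bp), with centres 9.97 and 12.2 kb from that of the highest one. The second of these stood high, at the 99.5 percentile by score among DNaseI regions of its width decile. The other 8 open regions of the window had scores from 9 to 27. Within the window, 9 of the 12 open regions formed 1 group of 18.7 kb.

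At Ccr7, open chromatin was spread over many regions, none scoring as high as the top regions of the other windows with open chromatin. The highest of the 21 DNaseI scores was 72, against 385 and 113 in those windows, and it stood at the 93.5 percentile of the whole list. Gaps between neighbours ran from 328 to 6384 bp. The region with that score, on chromosome 11 from 99010870 to 99011785, carried neither factor, nor did its wide neighbour from 99008829 to 99010078 (score 60, 1250 bp), also chosen after its values were seen. The region next in score, from 98997673 to 98998445 (score 69, 773 bp), carried both. Its HEB region ran from 98997844 to 98998044 (HEB score 15) and its TCF1 region from 98997769 to 98997951 (TCF1 score 21), with centres 84 bp apart and 108 bp shared. TCF1 without HEB was on the region from 99016255 to 99016904 (DNaseI score 61), at 99016296 to 99016478 (TCF1 score 17). HEB without TCF1 was on the region from 99024003 to 99024801 (DNaseI score 50), at 99024172 to 99024372 (HEB score 12). These 2 factor regions were 7885 bp apart.

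Across the windows, HEB met TCF1 in 5 places: 2 of the 4 HEB regions at Il4ra and Il21r, 2 of 2 at Ccr9 and 1 of 2 at Ccr7. This is 5 of 8 HEB regions, or 62.5% (30.6 to 86.3%), and 5 of 9 TCF1 regions, or 55.6% (26.7 to 81.1%). In the whole lists 11.7% of HEB regions and 16.3% of TCF1 regions met the other factor. These sets are unlike, since only 34.5% of the whole HEB list lay in DNaseI regions, against all 8 here. Among DNaseI regions with HEB, 6 of 8 in the windows also carried TCF1, against 619 of 1658 in the whole list. Among those with TCF1, 6 of 8 also carried HEB, against 619 of 2947. These counts do not require the 2 factors to overlap. The distances between centres in the windows, 12, 39, 76, 84 and 157 bp, had a median of 76 bp, and all 578 such pairs of the series had a median of 43 bp (quartiles 18 and 81). TCF1 regions lay at a median of 51.5% (range 23.4 to 63.6%) of the way from the middle of their open region to its edge. HEB regions lay at 33.3% (1.68 to 69.7%). In the whole lists these medians were 34.0% for TCF1 (quartiles 15.6 and 60.0%) and 33.7% for HEB (16.8 and 57.2%). Most of the TCF1 range in the windows thus lay between the quartiles of the whole list.

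**Figure D4:**
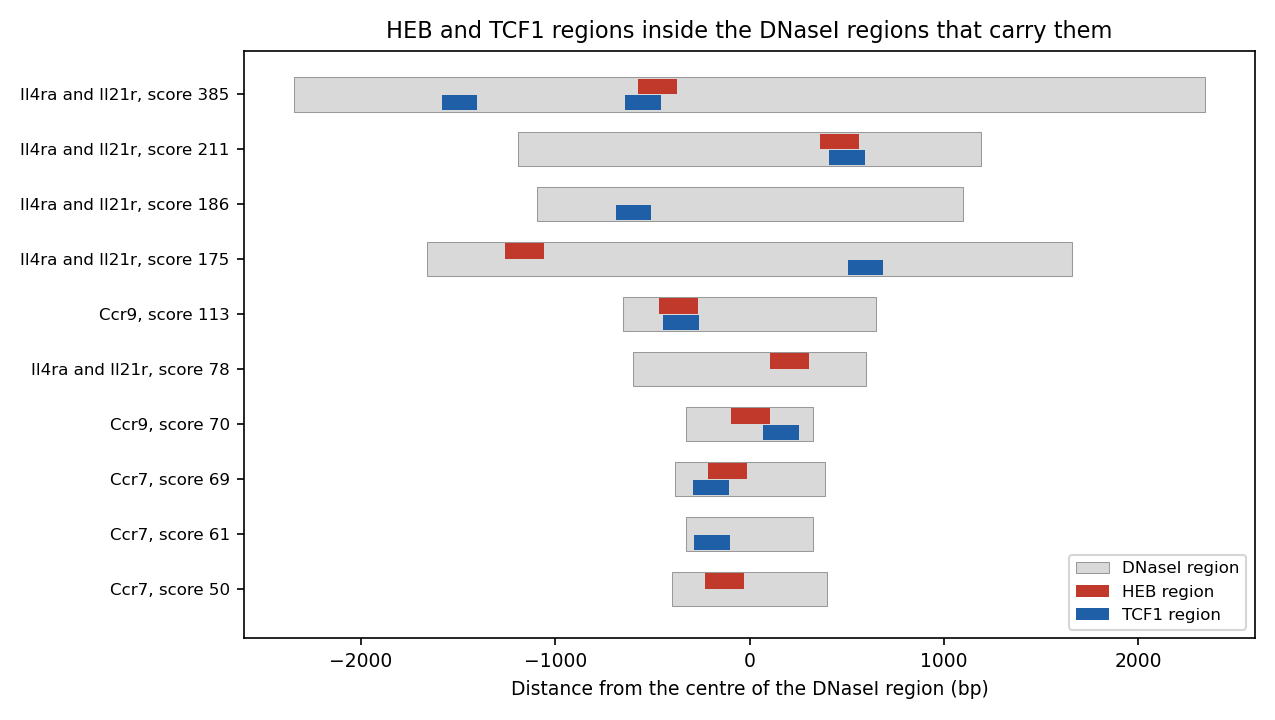
Position of each HEB and TCF1 region inside the 10 DNaseI regions that carry a factor, by distance in bp from the centre of the DNaseI region, ordered by DNaseI score. HEB and TCF1 overlap in 5 of the 6 regions with both, and in the region with a score of 175 their centres are 1754 bp apart.

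The scores of the factor regions were mostly in the upper part of their own lists. HEB scores in the windows were 12, 12, 13, 15, 17, 18, 20 and 26 (median 16), where the whole list had a median of 11, and the percentiles ran from 62.7 to 93.6. TCF1 scores were 9, 11, 12, 17, 17, 18, 21, 21 and 22 (median 17), where the whole list also had a median of 11. Their percentiles ran from 21.8 to 94.3. All 8 HEB scores and 7 of the 9 TCF1 scores were above the median of their list. Many regions tie at such low whole numbers, so the part of a list above its median is the smaller one. A TCF1 score of 11 ranked 1402 of 3546, and the lowest HEB score here, 12, stood at the 62.7 percentile. The sets are also unlike, since only 34.5% of the whole HEB list lay in DNaseI regions, against all 8 here. Scores of different lists have no common scale and were not compared.

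Il7r was the exception, with 0 DNaseI, 0 HEB and 0 TCF1 regions in its 100 kb. The listed open regions nearest to it ran on chromosome 15 from 9393365 to 9393646 (score 15, 282 bp), 6355 bp before the window, and from 9504499 to 9505018 (score 27, 520 bp), 4499 bp after it. The stretch between them was 110852 bp long and held no region of any list. Such emptiness was common: 57.6% of the 100 kb grid windows held no region of any list, and 73.8% of the chromosome span lay in gaps between DNaseI regions at least this long. By number, 3040 of the 48299 gaps, or 6.29%, were as long or longer, and 122 of the 2267 gaps on chromosome 15. The nearest HEB region was 73489 bp after the window (HEB score 17) and the nearest TCF1 region 881401 bp before it (TCF1 score 22). A region missing from a list was not called, which at unknown depth does not show closed or unbound DNA.

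The number of DNaseI members changed with the window edges, that of TCF1 members only when the edges moved out, and that of HEB members in neither case. With each edge moved out by 25 kb there were 87 DNaseI, 8 HEB and 11 TCF1 regions, and the Il7r window held 2 DNaseI regions. With each edge moved in by 10 kb there were 62 DNaseI, 8 HEB and 9 TCF1 regions. The outermost open regions inside the Il4ra and Il21r window had scores of 11 and 9, and the nearest outside had scores of 11, at 13679 bp before it, and 10, at 557 bp after it. At Ccr9 the outermost inside had scores of 70 and 9, and those just outside 50 (12795 bp before) and 82 (39987 bp after). At Ccr7 they were 9 and 15 inside, and 49 (7067 bp before) and 9 (4088 bp after) outside. The nearest factor regions left out were both TCF1, at 17461 bp before the Il4ra and Il21r window (TCF1 score 8) and 13402 bp before the Ccr7 window (TCF1 score 10). The nearest HEB region left out of these 2 windows was 200869 bp away. For Ccr9 the nearest factor region outside was a TCF1 region 864700 bp before the window (TCF1 score 31).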

How the data were processed

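Regions of open chromatin (DNaseI) and of HEB and TCF1 binding were taken from 3 lists deposited by the authors, each from 1 sample of DP thymocytes. Each list gives positions and, per region, a score. This score, a whole number as deposited, is in a unit the sources do not state, and it was used only within its own list. The submitters' processing notes name HOMER 6.1 and build mm9 without saying what HOMER did. Aligner, calling threshold, control libraries and totals were not given in the sources used here, so depth is unknown.

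Regions overlapping any of 4 mm9 windows, given for 5 receptor genes, were kept. The windows, genes and motifs were chosen with earlier results of these data known, and no test was run on the members. Overlap meant at least 1 bp. Shares carry 95% Wilson intervals, which cover counting error only. Every region of each window was compared with its whole list, and each window with a fixed grid of windows of its own length. The regions described singly were, by rule, all HEB and TCF1 regions, the DNaseI regions that carry either, and the 3 highest-scoring DNaseI regions of each window. A pair of regions with neither factor was added after their values were seen, and so were the regions nearest to the window edges. Other overlap rules, higher scores and moved window edges were tried. The overlap routine was tested on simulated lists. Gene names, gene order and promoters came from RefSeq tables of GRCm38.p6, another build, so no region was assigned to a gene part. The planned counts over other receptor genes and cell type markers need an mm9 annotation and were not run. Python 3.11.15, numpy 2.4.6, pandas 2.3.3, scipy 1.17.1 and matplotlib 3.10.9 were used.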

Additional observations from a re-analysis of the deposited data

How the results depend on the processing

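Of 42 values that 8 results took under other settings, 36 stayed within 1.5 times the count or within the interval of the share. The settings reuse the same regions and the intervals are wide, so this number does not measure how far another sample would differ. The counts of the Il7r window alone were not among these 8 results. When only regions scoring above their list's median were kept, the DNaseI regions in the windows fell to 35 and the share of them with HEB was 22.9%, against 4.48% of the whole list under that filter. The TCF1 share was then 20.0% (10.0 to 35.9%), against 4.68%. That whole-list share lies below the interval, whereas without the filter it lay within it. This is no test, since the intervals cover counting error only and the windows were chosen with these lists known. No window region scoring below 50 carried a factor, so the filter on DNaseI scores removed only regions without one. Without the Il4ra and Il21r window, a setting chosen after seeing the data, 33 DNaseI, 4 HEB and 4 TCF1 regions and 3 meetings of HEB with TCF1 were counted, since fewer regions entered. All 4 regions of each factor then still lay in DNaseI regions. With windows extended by 25 kb on both sides, 10 of 11 TCF1 regions lay in DNaseI regions, and the Il7r window gained 2 DNaseI regions and no factor region. No paired analysis was possible because each assay had 1 sample. Depth is unknown. Small differences in counts of 2 to 5 regions per window cannot be resolved with 1 sample per assay and windows of 60 to 200 kb.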
